A study of Homo sapiens with 12 samples.

Results

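The genes of the proteasome, of its assembly chaperones and of its activators were described in 12 RNA sequencing libraries of WM1366, a human NRAS-mutant melanoma line. Members were the rows whose gene symbol runs from PSMA to PSMG followed by a digit, except PSMB8 and PSMB9, and 50 of the 12931 listed rows met this rule. Of these, 44 code for proteins of the proteasome or its assembly: 7 subunits of the alpha ring, 8 of the beta ring, 6 ATPases and 11 non-ATPase subunits of the regulatory particle, 3 chaperones of the regulatory particle, 4 chaperones of the core, and 5 activators or inhibitors. The other 6 were 4 antisense RNAs, a pseudogene (PSMC1P10) and PSMC3IP, a meiotic recombination factor that shares only the start of its symbol.

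The tumours were xenografts of WM1366 that were progressing when sampled. R1 and R2 (4 libraries each) came from tumours on a diet with a MEK inhibitor and a CDK4/6 inhibitor, and control (4 libraries) came from tumours on control diet. What distinguishes R1 from R2 is not stated in the labels, nor is whether the libraries of a group are separate tumours, so p-values measure the spread between these libraries, which may be technical. For every library, control included, the labels also give growth in culture medium and treatment with palbociclib (0.1 µM, a CDK4/6 inhibitor) and PD0325901 (1 nM, a MEK inhibitor), so the labels name both cultured cells and tumours. The model is 1 cell line, and how reads from the host mouse were handled is not given in the sources used here.

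The proteasome is the protease that degrades proteins tagged with ubiquitin. Its barrel-shaped core, the 20S particle, stacks rings of alpha and beta subunits, and PSMB5, PSMB6 and PSMB7 carry the catalytic sites, which PSMB8, PSMB9 and PSMB10 replace in the immunoproteasome. The 19S regulatory particle receives, deubiquitinates and unfolds substrates and threads them into the core. When proteasome capacity falls short, the transcription factor NRF1 (gene NFE2L1) escapes degradation, is cut by DDI2 and drives the subunit genes together through antioxidant response elements.

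Depth ranged from 20003891 to 39009384 reads in listed genes per library, and each value is a library-size-scaled signal, called here the normalised signal. The 44 protein-coding members took 0.641% to 0.895% of the reads in R1, 0.575% to 0.723% in R2 and 0.568% to 0.703% in control. Of 9 melanoma and melanocyte markers, PMEL and MITF were among the listed genes. PMEL ranged from 22.4 to 35.7 in R1, 6.75 to 12.5 in R2 and 4.05 to 6.72 in control. For MITF the ranges were 15.3 to 29.1, 27.6 to 33.5 and 42.1 to 60.0. AXL, a marker of undifferentiated melanoma, ranged from 686 to 1024 in R1, 1311 to 1525 in R2 and 1476 to 1648 in control. For EGFR, a marker of the same list, the ranges were 68.6 to 124, 139 to 179 and 154 to 187. R1 replicate 2 stood apart: it was the lowest of the R1 libraries for 38 of the 44 members and also for TOP2A (189.6 against 332 to 479 in the other R1 libraries). It was also the highest R1 library for CSF1R (6.19 against 1.39 to 2.35) and LAPTM5 (9.35 against 1.77 to 3.61), markers of macrophages and leukocytes. Over the leukocyte list, 2 of 10 markers were among the listed genes, and their summed signal reached 4.13 to 15.5 in R1, 0.378 to 0.811 in R2 and 1.72 to 4.17 in control. Over the fibroblast and pericyte list, 3 of 7 were listed (COL1A1, LUM and PDGFRB), with sums of 83.6 to 152 in R1, 96.7 to 323 in R2 and 227.5 to 323 in control. R1 replicate 1 had the highest R1 sum, but COL1A1 made up most of each sum. LUM and PDGFRB were instead highest in R1 replicate 2 among the R1 libraries (10.8 and 9.08). In R2 they lay below every control library: LUM at 1.63 to 2.33 against 4.25 to 9.22, and PDGFRB at 0.116 to 0.468 against 1.56 to 5.78. The part of these markers in the results was not tested, and results that rest on R1 replicate 2 are given with and without it.

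In R1 against control, 12 of the 50 members were higher and 5 were lower. All tests were limma on log2(signal + 0.5) with p-values adjusted over all 12931 rows (Benjamini-Hochberg), and a gene is said to be higher or lower at an adjusted p under 0.05. Among all rows 22.4% were higher and 21.4% were lower, against 24% and 10% of the members, so the share that was higher was close to the background. Counted by ranges, 10 members lay above and 3 below control in all R1 libraries, beside 20.8% and 19% of all rows. The members' median log2 fold change was 0.14, against 0.01 over all rows. The rises were spread over the classes: 3 of 7 alpha subunits, 3 of 8 beta subunits, 2 of 11 non-ATPases, 2 of 4 core chaperones and 2 of 5 activators and inhibitors. None of the 6 ATPases passed the test in either direction. Without R1 replicate 2, 19 members were higher, 3 of the 6 ATPases among them, beside 3020 of all 12931 rows (2900 with all libraries). This library was singled out as the lowest R1 library for 38 of the 44 members, so more rises without it follow from that choice. In bulk samples, fewer cells of a type and less RNA per cell cannot be told apart.

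In R2 against control, 2 members were higher and 7 were lower, or 4% and 14%, beside 13.6% and 14.8% of all rows. The members' median was -0.02, against 0.03 over all rows. The ranges of 4 members lay above and of 10 below control, beside 18% and 16.8% of all rows. Beta subunits made up 3 of the 7 that were lower, and PSME4 and PSMF1 were the 2 that were higher. Leaving out single libraries moved the number that were higher to between 0 (without control replicate 2) and 4 (without R1 replicate 2), with 1 without R2 replicate 1 or 3 or without control replicate 1 or 4. Of all 12931 rows, 1394 were higher without control replicate 2 and 2076 without R1 replicate 2, beside 1756 with all libraries. In R2 against R1, 2 members were higher and 17 were lower, or 4% and 34%, beside 22.8% and 24% of all rows, and the median was -0.18 against -0.00 over all rows. The ranges of 1 member lay above and of 14 below R1, beside 19.1% and 20.3% of all rows. The lower members included 6 of the 8 beta subunits and 3 of the 7 alpha subunits. Without R1 replicate 2, 21 members were lower in R2 than in R1, beside 3129 of all 12931 rows (3108 with all libraries). Each pair of comparisons shares 1 group of libraries, so the 3 sets of values are not independent.

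**Figure D1:**
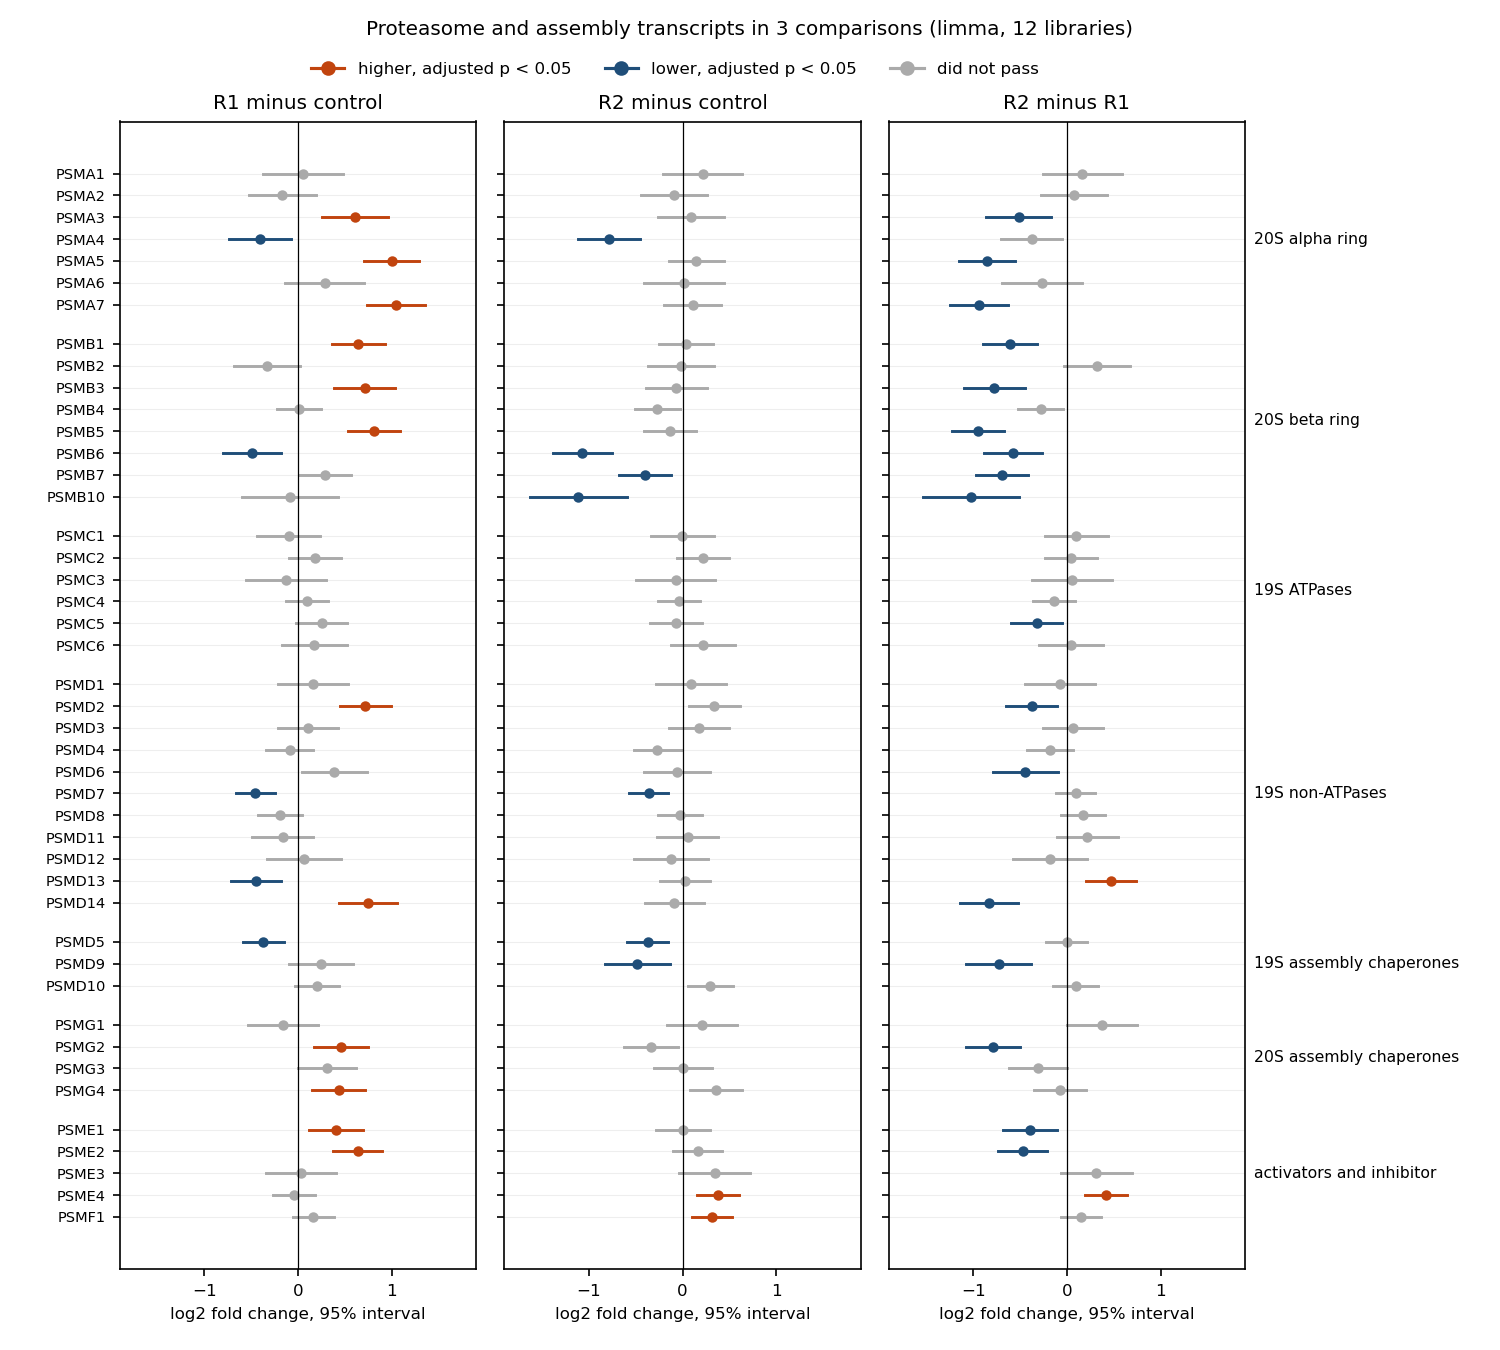
Log2 fold change (x axis, log2 of signal + 0.5) of each proteasome and assembly protein gene (y axis, grouped by class), in 1 panel per comparison; colour marks genes that passed the test and lines are 95% confidence intervals. In R1 minus control the largest rises were PSMA7 (1.05) and PSMA5 (1.00), and in R2 minus control the largest falls were PSMB10 (-1.11) and PSMB6 (-1.07).

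The 3 catalytic beta subunits did not move together. PSMB5, the chymotrypsin-like subunit and the main target of bortezomib, had normalised signals of 173, 166, 232 and 183 in R1, 100.02, 78.1, 116 and 95.2 in R2 and 113, 104, 108 and 100.004 in control. All R1 libraries lay above all R2 and control libraries. PSMB5 was higher in R1 than in control (log2 fold change 0.81 with SE 0.13, adjusted p = 0.000182) and lower in R2 than in R1 (log2 fold change -0.95 with SE 0.13, adjusted p = 4.8e-05), while R2 and control overlapped (log2 fold change -0.14 with SE 0.13, adjusted p = 0.466).

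PSMB6, the caspase-like subunit, gave 88.4, 80.9, 133 and 96.1 in R1, 67.7, 57.0, 75.6 and 63.4 in R2 and 149.6, 144, 143 and 118 in control. Every R2 library lay below every R1 and control library, and R1 overlapped control only through R1 replicate 3. PSMB6 was lower in R1 (log2 fold change -0.49 with SE 0.15, adjusted p = 0.0131) and in R2 (log2 fold change -1.07 with SE 0.15, adjusted p = 8.57e-05) than in control, and lower in R2 than in R1 (log2 fold change -0.57 with SE 0.15, adjusted p = 0.00524).

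PSMB7, the trypsin-like subunit, gave 219.9, 216, 319 and 243 in R1, 145, 133, 172 and 164 in R2 and 214, 194, 213 and 184 in control. R1 lay just above control without passing the test (log2 fold change 0.29 with SE 0.13, adjusted p = 0.0808), although it passed without R1 replicate 2 (adjusted p = 0.0409) and with a replicate block (adjusted p = 0.0425), and R2 lay below both. PSMB7 was lower in R2 than in control (log2 fold change -0.40 with SE 0.13, adjusted p = 0.0334) and than in R1 (log2 fold change -0.69 with SE 0.13, adjusted p = 0.000633). The call against control did not hold without R2 replicate 1 or 2 or control replicate 1, 2 or 3 (there adjusted p was 0.0559 to 0.0876).

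Per kb of transcript length, the signal of PSMB6 over that of PSMB5 came to 0.614 ± 0.0425 in R1, 0.797 ± 0.0409 in R2 and 1.53 ± 0.104 in control (SD, n = 4 each). The ranges of this ratio did not overlap between any pair of groups: 0.569 to 0.670 in R1, 0.761 to 0.855 in R2 and 1.38 to 1.63 in control. The ratio of PSMB7 to PSMB5 came to 1.36 ± 0.0438 in R1, 1.63 ± 0.149 in R2 and 1.95 ± 0.0601 in control. These are ratios of transcripts and give no amounts of assembled subunits.

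**Figure D2:**
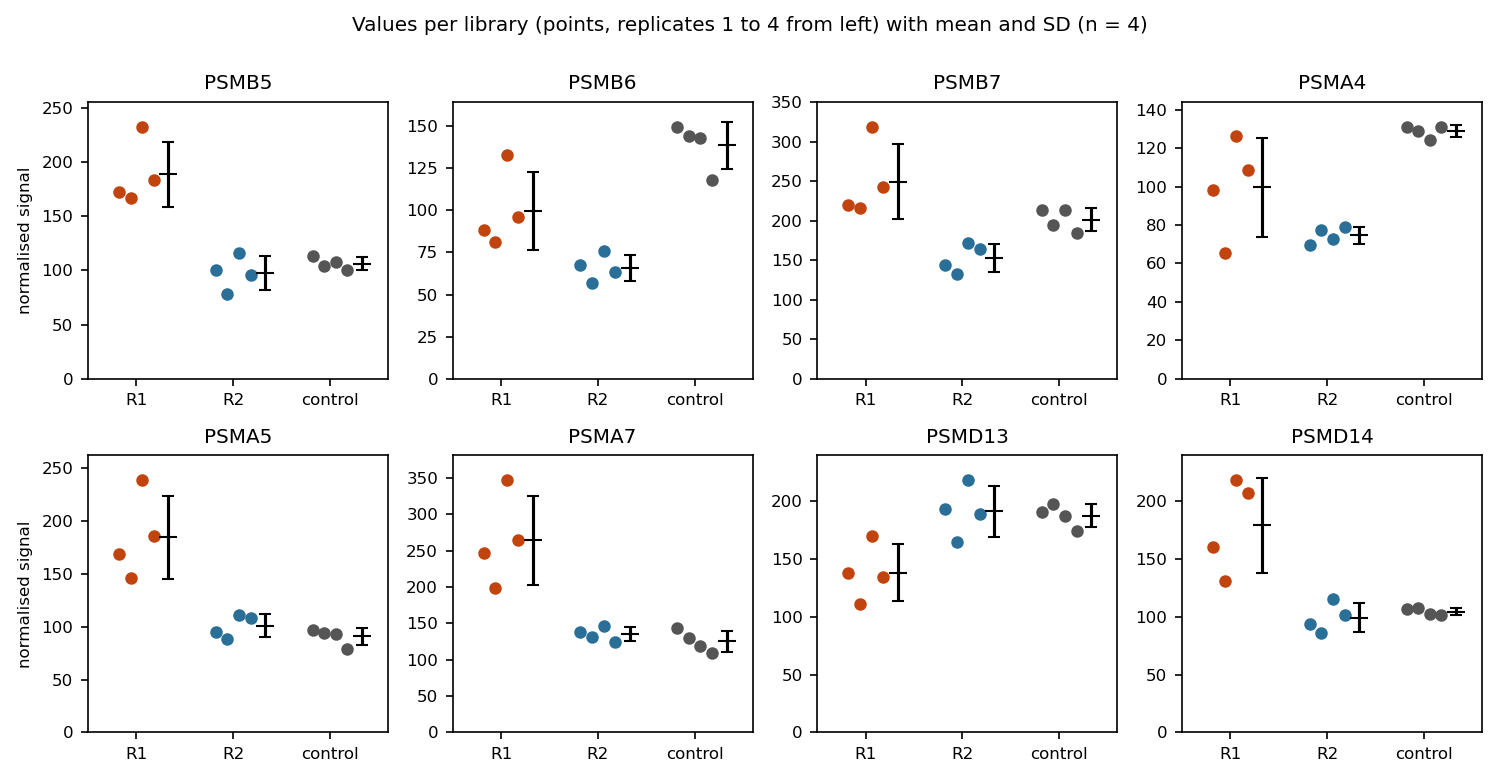
Normalised signal (y axis, from 0) of selected proteasome genes in each library (points), with group means and SD, for R1, R2 and control from left to right. PSMB5 in R1 (166 to 232) lies above control (100.004 to 113), while PSMB6 in R2 (57.0 to 75.6) lies below control (118 to 149.6).

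Among the other beta subunits, which carry no active site, PSMB1 and PSMB3 were higher in R1 than in control. PSMB1 averaged 322 ± 72.9 in R1, 207 ± 5.79 in R2 and 202 ± 8.31 in control, and PSMB3 averaged 188 ± 47.0 in R1, 108 ± 14.0 in R2 and 112 ± 9.85 in control (SD, n = 4 each). Both were higher in all R1 libraries than in any control library (log2 fold changes 0.65 and 0.71, adjusted p = 0.00147 and 0.00178). Both were also lower in R2 than in R1 (log2 fold changes -0.61 and -0.77, adjusted p = 0.00204 and 0.000878). PSMB2 and PSMB4 did not pass in any comparison by limma with all libraries and no block. On recovered reads, PSMB4 was lower in R2 than in R1 by edgeR and DESeq2 (adjusted p = 0.0487 and 0.0236) and lower in R2 than in control by DESeq2 (adjusted p = 0.0363). With limma it was lower in R2 than in R1 with a replicate block (adjusted p = 0.0314) and lower in R2 than in control with only these groups fitted (adjusted p = 0.0301). Without R1 replicate 3, PSMB2 was lower in R1 than in control and higher in R2 than in R1 (adjusted p = 0.0394 and 0.0429), and PSMB4 was lower in R2 than in control (adjusted p = 0.0399). Without R1 replicate 2, PSMB4 was lower in R2 than in R1 (adjusted p = 0.0179).

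PSMB10, the trypsin-like subunit of the immunoproteasome, had low signals of 3.54, 4.08, 4.37 and 3.40 in R1, 2.30, 2.28, 1.404 and 0.872 in R2 and 4.61, 3.35, 5.84 and 3.05 in control. All R2 libraries lay below all others, and R1 overlapped control. PSMB10 was lower in R2 than in control (log2 fold change -1.11 with SE 0.24, adjusted p = 0.00323) and than in R1 (log2 fold change -1.03 with SE 0.24, adjusted p = 0.00306). These values rest on 19 to 146 reads per library and, as given below, on a gene that shares coding exons with another. Of the other immunoproteasome subunits, which lie outside the rule, PSMB8 was higher in R1 (log2 fold change 1.13 with SE 0.14, adjusted p = 1.62e-05) and did not pass in R2 (log2 fold change 0.03), and PSMB9 was higher in R1 (0.69) and in R2 (0.60).

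In the alpha ring, whose N termini gate the entry to the core, PSMA7 and PSMA5 had the largest rises of all members in R1. PSMA7 gave 247, 199, 346 and 265 in R1, 138, 131, 147 and 124 in R2 and 143, 130.1, 119 and 109.7 in control, and PSMA5 gave 169, 146, 238 and 185 in R1, 94.8, 88.6, 111 and 108 in R2 and 97.02, 93.9, 93.5 and 78.8 in control. For both, every R1 library lay above every library of the other groups, and R2 overlapped control. PSMA7 (log2 fold change 1.05 with SE 0.14, adjusted p = 5.37e-05) and PSMA5 (log2 fold change 1.00 with SE 0.14, adjusted p = 5.71e-05) were higher in R1 than in control. The ratio of the group means, R1 over control, was 2.10 for PSMA7 and 2.03 for PSMA5. Both were lower in R2 than in R1 (log2 fold changes -0.94 and -0.85, adjusted p = 0.000127 and 0.000202). PSMA3 was also higher in R1 (log2 fold change 0.61 with SE 0.16, adjusted p = 0.00815), with overlap through R1 replicate 2, and lower in R2 than in R1 (log2 fold change -0.52 with SE 0.16, adjusted p = 0.0184), which no longer passed without R1 replicate 3 or 4 or R2 replicate 2 and with a trend on transcript length removed (adjusted p of 0.0534 to 0.108).

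PSMA4 went the other way, with 98.3, 65.4, 126 and 109 in R1, 69.7, 77.3, 72.6 and 78.9 in R2 and 131, 129, 124 and 131 in control. All R2 libraries lay below all control libraries, and in R1 replicate 2 was the lowest and replicate 3 lay within the control range. PSMA4 was lower in R2 than in control (log2 fold change -0.79 with SE 0.15, adjusted p = 0.00156). In R1 it was also lower (log2 fold change -0.41 with SE 0.15, adjusted p = 0.0433), but this call was lost when any single library other than R1 replicate 3 or 4 or R2 replicate 2 was left out, and under 3 other settings (adjusted p of 0.0515 to 0.0848). Against R1, R2 was lower only without R1 replicate 2 or by a count model (adjusted p of 0.000385 to 0.0344). PSMA1, PSMA2 and PSMA6 did not pass in any comparison.

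Promoter sequences are shown for 4 of the members that were higher in R1 and lower in R2 than in R1: PSMA5, PSMB3, PSMB5 and PSMD14. Others that met both, among them PSMA3, PSMD2, PSME1, PSME2 and PSMG2, are not shown. Each is the 180 bases before the gene start in RefSeq (GRCh38.p14), written 5′ to 3′ on the gene's strand, and capitals mark matches on either strand to TGACNNNGC (the core of the antioxidant response element read by NRF1 and NRF2), CCAAT (bound by NF-Y) or CCGGAAG (an ETS motif). The stretches lie at chr1:109426449-109426628 on the minus strand for PSMA5, chr17:38752561-38752740 on the plus strand for PSMB3, chr14:23035221-23035400 on the minus strand for PSMB5 and chr2:161308245-161308424 on the plus strand for PSMD14.
PSMA5: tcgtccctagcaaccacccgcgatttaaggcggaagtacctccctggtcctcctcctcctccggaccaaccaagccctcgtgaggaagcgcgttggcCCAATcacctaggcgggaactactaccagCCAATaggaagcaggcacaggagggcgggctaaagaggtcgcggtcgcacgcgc
PSMB3: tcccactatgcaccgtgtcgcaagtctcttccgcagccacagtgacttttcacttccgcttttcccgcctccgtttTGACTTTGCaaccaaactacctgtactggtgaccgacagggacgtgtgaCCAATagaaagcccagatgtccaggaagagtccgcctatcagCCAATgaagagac
PSMB5: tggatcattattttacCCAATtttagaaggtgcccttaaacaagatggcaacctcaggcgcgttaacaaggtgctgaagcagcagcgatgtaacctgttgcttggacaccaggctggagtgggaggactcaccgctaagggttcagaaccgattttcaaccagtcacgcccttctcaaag
PSMD14: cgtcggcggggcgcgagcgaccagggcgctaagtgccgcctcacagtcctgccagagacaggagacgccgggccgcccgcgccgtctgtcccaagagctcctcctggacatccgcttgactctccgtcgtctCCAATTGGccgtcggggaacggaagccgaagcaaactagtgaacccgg
In these stretches only PSMB3 held TGACNNNGC, and all 4 held CCAAT; the CCAAT matches of PSMD14 overlap, because CCAATTGG reads as CCAAT on both strands. In the 250 bases before the start, TGACNNNGC occurred in 10 of the 38 members with an entry (26.3%), against 12.3% of 9317 promoters of listed genes. It occurred in 4 of the 10 members with an entry that were higher in R1 and in 1 of the 4 that were lower. Members with this motif included PSMD5, lower in R1 and R2, and PSMD9, lower in R2. CCAAT occurred in 16 of the 38 members (42.1%) against 35.7%, in 5 of the 10 members with an entry that were higher in R1 and in 1 of the 4 that were lower. PSMD2, PSME1, PSME2 and PSMG2 held no CCAAT, and PSME1, PSME2 and PSMG2 held TGACNNNGC, so the 4 stretches shown do not stand for all members that rose. CCGGAAG occurred in 9 of the 38 members (23.7%) against 16.6%, and the GC box GGGCGG in 25 (65.8%) against 68.0%. A match is a string of letters and not a measured site, and no binding was measured in these libraries.

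The 6 ATPases, which form the ring that unfolds substrates, did not pass in R1 or R2 against control. Their log2 fold changes ran from -0.13 (PSMC3) to 0.25 (PSMC5) in R1 and from -0.07 to 0.22 in R2. Without R1 replicate 2, PSMC2, PSMC5 and PSMC6 were higher in R1 than in control (adjusted p = 0.0203, 0.0355 and 0.0426). With only R2 and control fitted, PSMC2 was higher in R2 (adjusted p = 0.049). The full set of libraries gave PSMC2 means of 72.2 ± 14.7 in R1, 73.3 ± 4.77 in R2 and 62.7 ± 2.99 in control (SD, n = 4 each), with R1 replicate 2 the only R1 library below the control range. PSMC5 passed in R2 against R1 at the edge of the threshold (log2 fold change -0.32 with SE 0.13, adjusted p = 0.0497), a call that 17 of the 23 alternatives removed.

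Among the non-ATPase subunits, PSMD14 and PSMD2 were higher in R1 and PSMD7 and PSMD13 were lower. PSMD14, the deubiquitinase that cuts the ubiquitin chain from substrates, gave 160.3, 131, 218 and 208 in R1, 93.7, 85.8, 115 and 102 in R2 and 107, 108, 102 and 102 in control. Every R1 library lay above every other library, and the R2 range held the control range. PSMD14 was higher in R1 than in control (log2 fold change 0.74 with SE 0.15, adjusted p = 0.000962) and lower in R2 than in R1 (log2 fold change -0.83 with SE 0.15, adjusted p = 0.000387).

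PSMD2, a large scaffold subunit of the base, gave 1119, 936, 1338 and 1199 in R1, 857, 778, 997 and 888 in R2 and 746, 747, 654 and 628 in control. R1 and R2 both lay above control in every library, and R1 overlapped R2 through R1 replicate 2. It was higher in R1 than in control (log2 fold change 0.72 with SE 0.13, adjusted p = 0.000485), did not pass in R2 (log2 fold change 0.34 with SE 0.13, adjusted p = 0.0611) and was lower in R2 than in R1 (log2 fold change -0.38, adjusted p = 0.0266). The R2 difference from control passed without R1 replicate 2 or 3 or R2 replicate 2 (adjusted p down to 0.0292), by DESeq2 on recovered reads (0.035) and with only these groups fitted (0.0298). The one between R2 and R1 was lost with only these groups fitted (0.0577) and without R1 replicate 3 or 4 or R2 replicate 1 or 2 (there adjusted p was at most 0.0742).

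PSMD7, a lid subunit that pairs with PSMD14, gave 118, 106, 139 and 126 in R1, 136, 125, 127 and 132 in R2 and 158, 159, 178 and 175 in control, with all R1 and R2 libraries below all control libraries. It was lower in R1 (log2 fold change -0.46 with SE 0.10, adjusted p = 0.00168) and in R2 (log2 fold change -0.36 with SE 0.10, adjusted p = 0.012) than in control, so that the paired subunits PSMD14 and PSMD7 differed in direction in R1. With a trend on transcript length removed, PSMD7 was also higher in R2 than in R1 (adjusted p = 0.00665). PSMD13, another lid subunit, gave 138, 111, 170.0 and 134 in R1, 193, 164, 218 and 189 in R2 and 191, 197, 187 and 174 in control. Every R1 library lay below every control library and R2 overlapped control. PSMD13 was lower in R1 than in control (log2 fold change -0.45 with SE 0.12, adjusted p = 0.00924) and higher in R2 than in R1 (log2 fold change 0.47 with SE 0.12, adjusted p = 0.00653).

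PSMD4, a ubiquitin receptor, gave 395, 343, 521 and 403 in R1, 358, 363, 383 and 344 in R2 and 462, 434, 439 and 411 in control. All R2 libraries lay below all control libraries, but PSMD4 passed in neither comparison with control (log2 fold changes -0.09 in R1 and -0.27 in R2, adjusted p = 0.569 and 0.1); the R2 difference passed without R1 replicate 3 (adjusted p = 0.0304) and with only R2 and control fitted (adjusted p = 0.0199). PSMD6, a lid subunit, was lower in R2 than in R1 (log2 fold change -0.44 with SE 0.16, adjusted p = 0.037), which no longer passed without any 1 of R1 replicates 1, 3 and 4 or R2 replicates 1, 2 and 4, with only these groups fitted or with a trend on transcript length removed (there adjusted p was at most 0.117). In R1 against control PSMD6 did not pass (log2 fold change 0.39 with SE 0.16, adjusted p = 0.068). It passed there without R1 replicate 2 (log2 fold change 0.56, adjusted p = 0.00243), with a replicate block (adjusted p = 0.0498) and, on recovered reads, by edgeR (0.0453) and DESeq2 (0.0398). The other 5 non-ATPases, PSMD1, PSMD3, PSMD8, PSMD11 and PSMD12, passed in no comparison by limma with all libraries and no length correction. Without R1 replicate 2, PSMD1 was higher in R1 than in control (adjusted p = 0.0199) and PSMD12 was lower in R2 than in R1 (adjusted p = 0.0298), and with a trend on transcript length removed PSMD8 was higher in R2 than in R1 (adjusted p = 0.0325).

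The chaperones of the core, PSMG1 to PSMG4, pair up to build the alpha ring: PSMG1 with PSMG2 and PSMG3 with PSMG4. PSMG1 gave 41.4, 24.1, 39.7 and 36.9 in R1, 40.3, 38.0, 50.4 and 54.4 in R2 and 45.4, 43.1, 35.8 and 33.1 in control, and PSMG2 gave 38.1, 26.6, 39.0 and 35.8 in R1, 19.7, 17.2, 21.2 and 21.1 in R2 and 23.8, 23.9, 23.7 and 28.99 in control. PSMG1 overlapped between all groups and did not pass, except in R2 against R1 with a trend on transcript length removed, where it was higher in R2 (adjusted p = 0.0314), while PSMG2 lay lowest in R2, with R1 above control except for R1 replicate 2, which lay below control replicate 4. PSMG2 was higher in R1 than in control (log2 fold change 0.46 with SE 0.13, adjusted p = 0.0128) and lower in R2 than in R1 (log2 fold change -0.79 with SE 0.13, adjusted p = 0.000281), and it did not pass in R2 against control (log2 fold change -0.33 with SE 0.13, adjusted p = 0.0756) except without R1 replicate 2 (adjusted p = 0.0277) and under 3 other settings.

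PSMG3 gave 68.3, 58.9, 97.6 and 72.5 in R1, 58.6, 51.6, 70.8 and 56.0 in R2 and 64.4, 59.1, 60.3 and 51.9 in control, and PSMG4 gave 16.7, 14.9, 16.3 and 13.0 in R1, 16.3, 15.6, 14.1 and 11.8 in R2 and 10.2, 10.8, 12.4 and 11.1 in control. PSMG3 overlapped between all groups and passed in R1 only without R1 replicate 2 (adjusted p = 0.0263) or with a replicate block, and was lower in R2 than in R1 only without R1 replicate 2 or R2 replicate 3 or with that block (adjusted p of 0.0255 to 0.0475). PSMG4 lay above control in all R1 libraries and in 3 of the R2 libraries. It was higher in R1 than in control (log2 fold change 0.43 with SE 0.13, adjusted p = 0.0152), a call lost with a trend on transcript length removed (adjusted p = 0.133). In R2 it did not pass (log2 fold change 0.36 with SE 0.13, adjusted p = 0.0554) except without R2 replicate 4 (adjusted p = 0.0256) and under 5 other settings.

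Of the regulatory particle's chaperones, PSMD5 was lower in both groups and PSMD9 in R2. PSMD5 gave 58.5, 44.7, 48.7 and 57.6 in R1, 50.4, 52.9, 50.4 and 53.8 in R2 and 71.7, 71.6, 63.1 and 63.4 in control, so every R1 and R2 library lay below every control library. It was lower in R1 (log2 fold change -0.37 with SE 0.10, adjusted p = 0.0103) and in R2 (log2 fold change -0.37 with SE 0.10, adjusted p = 0.0151) than in control. PSMD9 gave 9.51, 9.08, 13.6 and 11.9 in R1, 6.57, 6.80, 6.62 and 5.55 in R2 and 11.2, 9.85, 8.34 and 7.41 in control, with all R2 libraries below all others. PSMD9 was lower in R2 than in R1 (log2 fold change -0.73 with SE 0.16, adjusted p = 0.00204) and than in control (log2 fold change -0.48 with SE 0.16, adjusted p = 0.0373). The call against control did not hold with a replicate block (adjusted p = 0.0543) or without any 1 of R2 replicates 1, 3 and 4 or control replicates 1, 2 and 3 (there adjusted p was at most 0.111). PSMD10 (gankyrin) did not pass in any comparison by limma with all libraries and no length correction. In R2 against control it was higher without R1 replicate 2 or R2 replicate 3 (adjusted p = 0.0396 and 0.0483) and with only these groups fitted (0.0478). With a trend on transcript length removed it was higher in R2 than in control (adjusted p = 0.0324) and than in R1 (adjusted p = 0.0207).

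The activators split by type. PSME1 and PSME2 form the interferon-inducible PA28 cap of the core, and their genes lie next to each other on chromosome 14. PSME1 gave 114, 138, 174 and 130.4 in R1, 105, 113, 95.04 and 103 in R2 and 87.5, 96.96, 124 and 108 in control, and PSME2 gave 108, 111, 161 and 118 in R1, 90.3, 86.7, 93.8 and 82.8 in R2 and 84.3, 81.6, 80.0 and 70.3 in control. PSME2 in R1 lay above every other library, whereas PSME1 in R1 overlapped control. PSME2 (log2 fold change 0.64 with SE 0.12, adjusted p = 0.000781) and PSME1 (log2 fold change 0.41 with SE 0.13, adjusted p = 0.0235) were higher in R1 than in control, and both were lower in R2 than in R1 (log2 fold changes -0.47 and -0.40, adjusted p = 0.00553 and 0.025). The PSME1 call against control was lost without R1 replicate 3 or control replicate 1 or 2 (there adjusted p was at most 0.0784), and the one between R2 and R1 without R1 replicate 3 or R2 replicate 3 or 4 (there adjusted p was at most 0.0742). With a trend on transcript length removed, both PSME1 calls were lost, as was that of PSME2 between R2 and R1 (adjusted p = 0.0509).

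PSME4, which codes for the nuclear activator PA200, gave 97.7, 87.1, 94.4 and 107 in R1, 108, 131, 142 and 138 in R2 and 105, 91.0, 97.7 and 102 in control. PSMF1, which codes for the inhibitor PI31, gave 78.7, 75.0, 99.6 and 86.4 in R1, 97.7, 87.1, 93.2 and 97.7 in R2 and 76.9, 74.7, 79.8 and 70.0 in control. For both genes every R2 library lay above every control library. PSME4 was higher in R2 than in control (log2 fold change 0.38 with SE 0.11, adjusted p = 0.0146) and than in R1 (log2 fold change 0.42 with SE 0.11, adjusted p = 0.0049), and PSMF1 was higher in R2 than in control (log2 fold change 0.32 with SE 0.10, adjusted p = 0.03). The first call was lost without R2 replicate 3 or control replicate 2 (adjusted p = 0.0508 and 0.0503), and the PSMF1 call without any 1 of R2 replicates 1, 3 and 4 or control replicates 1, 2 and 4 (there adjusted p was 0.0518 to 0.0868). With a trend on transcript length removed, none of these 3 calls passed (adjusted p of 0.0684 to 0.104). PSME3, the nuclear PA28 gamma, did not pass in any comparison.

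The 6 other symbols taken by the rule did not pass in any comparison with all libraries, with log2 fold changes of -0.30 to 0.20 in R1 and -0.32 to 0.07 in R2. PSMD5-AS1 was lower in R2 than in R1 only without R2 replicate 2 (adjusted p = 0.0384). PSMC1P10 is a pseudogene of PSMC1, so the counting could split reads between them. The library kit does not mark strand, so reads in exons that overlap an antisense gene cannot be assigned by strand. In GENCODE 29 such exons make up 75.8% of the exonic bases of PSMC1, 30.7% of PSMD7, 19.5% of PSMC5, 16.7% of PSMG2 and 15.0% of PSMG4.

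**Figure D3:**
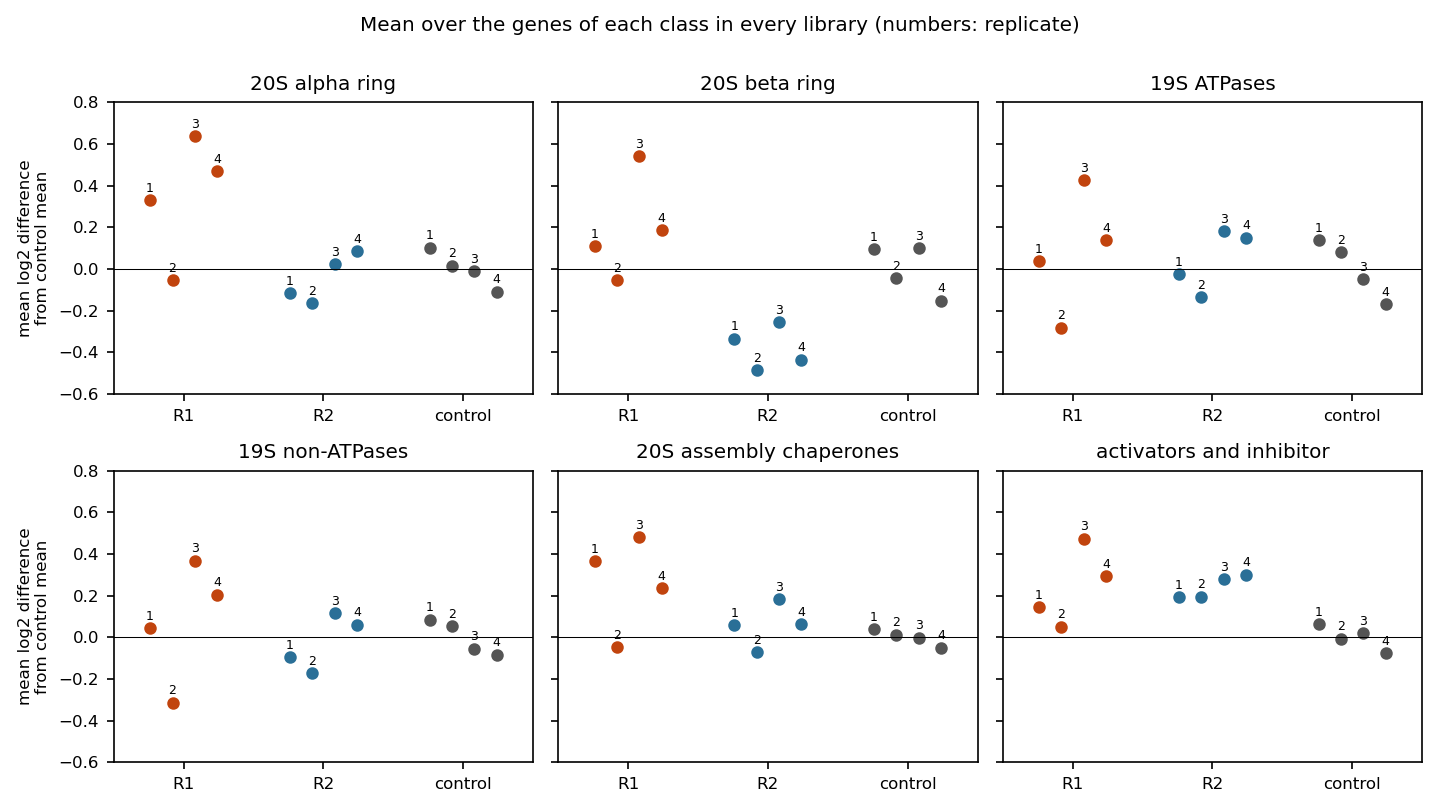
Mean log2 difference from the control mean (y axis) over the genes of a class, 1 panel per class, in each library (points, numbered by replicate), for R1, R2 and control from left to right. R1 replicate 2 is the lowest R1 library in all 6 classes shown, at -0.05 for the beta ring against 0.11 to 0.54 in the other R1 libraries.

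The libraries of R1 differed among themselves more than those of the other groups. R1 replicate 3 was the highest R1 library for 36 of the 44 members and R1 replicate 2 the lowest for 38. For the alpha ring, the mean log2 difference from control was -0.05 in R1 replicate 2, against 0.33, 0.64 and 0.47 in R1 replicates 1, 3 and 4. The median SD of members on the log2 scale reached 0.28 in R1, 0.17 in R2 and 0.14 in control, against 0.24, 0.18 and 0.16 over all rows. Ribosomal protein genes took 8.69% to 10.7% of the reads in R1, 5.13% to 6.21% in R2 and 4.98% to 5.69% in control, so that every R1 library lay above all others. Within R1 the order differed from that of the members. The ribosomal share was 9.89% in R1 replicate 2, against 8.75%, 10.7% and 8.69% in R1 replicates 1, 3 and 4. Mitochondrial genes took 2.17% to 3.28% of the reads in R1, 4.02% to 9.63% in R2 and 5.86% to 10.9% in control, so that every R1 library lay below all others. The part of either share in the results was not tested.

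Per kb, PSMB4 (720.0), PSMD4 (326) and PSMD2 (264) had the highest mean signals of the 44 members in control, and PSMA2 (2.29), PSMB10 (3.46), PSMD9 (3.99), PSMA1 (5.11) and PSMA6 (13.3) the lowest, followed by PSME4 (14.0). Subunits that stand in equal number in the particle thus differed in listed signal by up to 59.6-fold in the alpha ring of control. The 5 lowest are also the members whose coding exons are shared, on the same strand, with a second gene in GENCODE 29: 88.6% of the coding bases of PSMA1, 100% of PSMA2, 70.4% of PSMA6, 60.0% of PSMB10 and 68.3% of PSMD9. Of the other 39 members, only PSME2 shared any coding base with a second gene on the same strand (0.125%). How reads in shared exons were counted is not given in the sources used here, so the levels of these 5 genes are uncertain. Leaving the 5 out, the highest over the lowest signal per kb in control was 3.93-fold in the alpha ring (4 genes), 9.94-fold in the beta ring (7 genes) and 6.71-fold among the 6 ATPases.

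**Figure D4:**
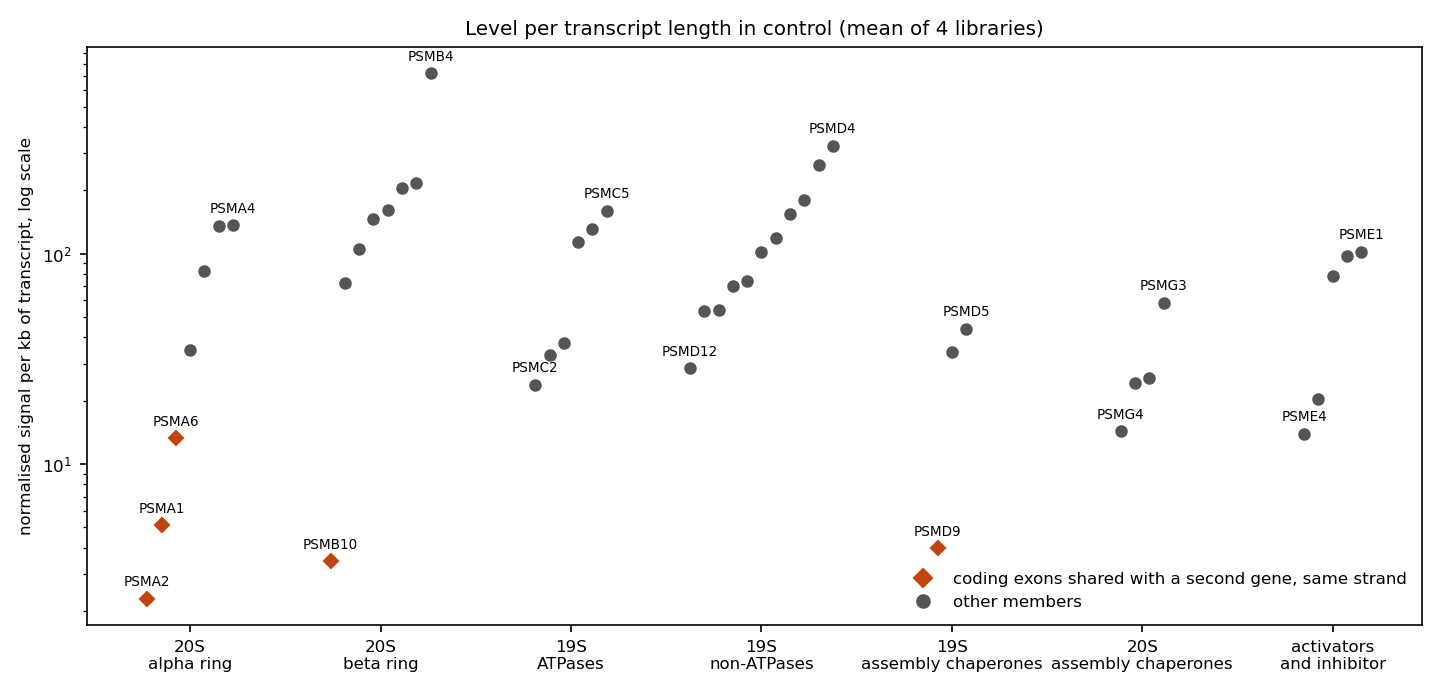
Mean normalised signal per kb of transcript length in control (y axis, log scale, mean of 4 libraries) of each of the 44 members, by class along the x axis; diamonds mark the 5 members whose coding exons are shared with a second gene. These 5 have the lowest values in control, from 2.29 (PSMA2) to 13.3 (PSMA6).

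Several of the members that were lower lie among genes that were mostly lower too. PSMB6 lies at chr17:4796164-4798495 (GRCh38.p14), and of the 126 tested genes that start within 5 Mb, 96 were lower in R1 (median log2 fold change -0.87) and 116 in R2 (median -0.90). PSMB6 itself stood at -0.49 in R1 and -1.07 in R2. PSMA4 lies at chr15:78540405-78552417, where 50 of 67 neighbours were lower in R2 (median -0.70), beside -0.79 for PSMA4. PSMD13 lies at chr11:236976-252984, where 35 of 50 neighbours were lower in R1 (median -0.66) and 36 were higher in R2 than in R1 (median 0.70), beside -0.45 and 0.47 for PSMD13. PSMB10, at chr16:67934506-67936850, had 13 of 83 neighbours lower in R2 (median -0.10). Other members that were lower had neighbours with smaller shifts. In R1 the neighbour medians were 0.09 for PSMD5, -0.18 for PSMA4 and -0.24 for PSMD7. In R2 they were -0.27 for PSMB7, -0.26 for PSMD9, -0.17 for PSMD5 and -0.11 for PSMD7.

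The 12 members that were higher in R1 had neighbour medians from -0.22 (PSMG2) to 0.38 (PSMB1). Of the neighbours, 7 of 12 were higher in R1 for PSMB1 and 23 of 58 for PSMA5. The median of the neighbours was 0.17 for PSMA7 (chr20:62136733-62143394), 0.27 for PSMA5 (chr1:109399042-109426448), 0.10 for PSMB5 (chr14:23025851-23035220), -0.10 for PSMD14 (chr2:161308425-161411717) and -0.22 for PSMG2. The part of position in the genome was not tested. PSMA1 on chromosome 11 went against its neighbours: 29 of 40 were lower in R1 (median -0.69), while PSMA1, one of the genes with shared exons, stood at 0.05.

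**Figure D5:**
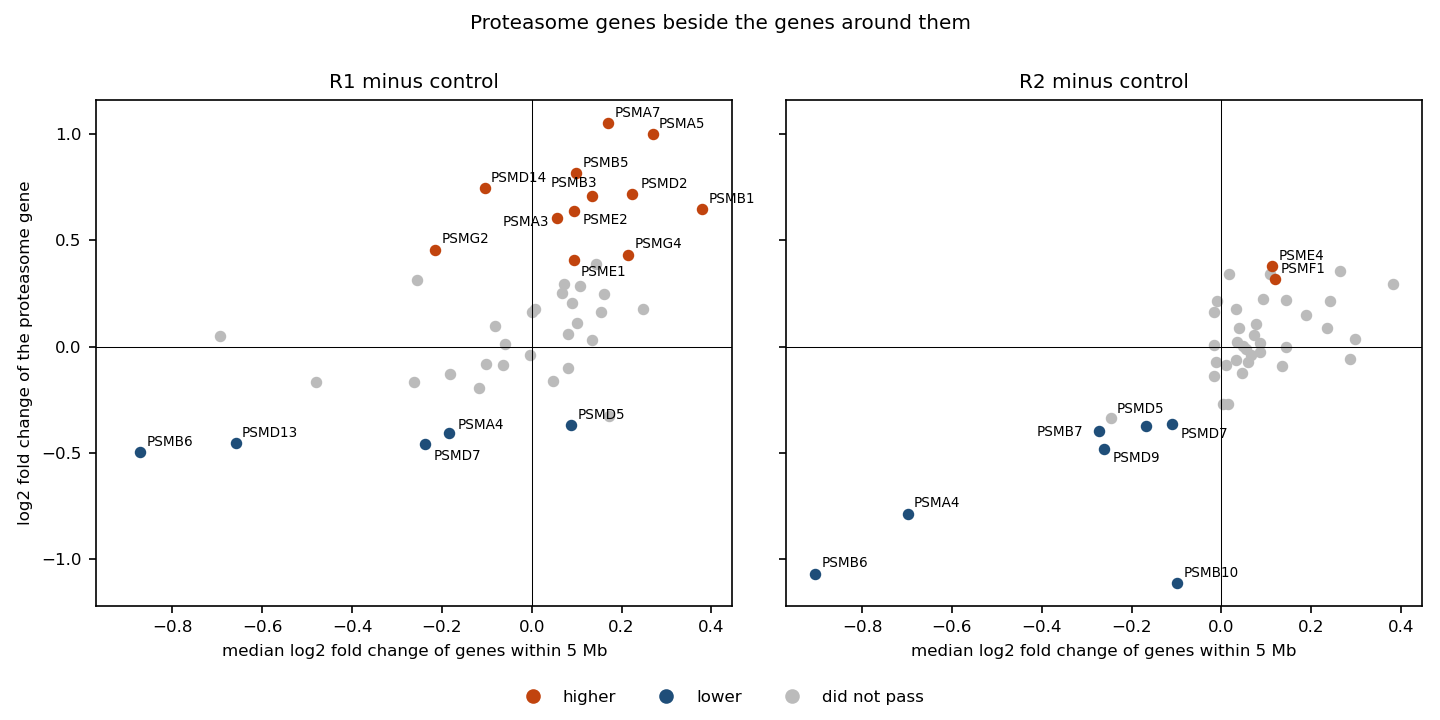
Log2 fold change of each proteasome gene (y axis) against the median log2 fold change of the tested genes that start within 5 Mb of it (x axis), for R1 minus control (left) and R2 minus control (right); labelled points passed the test. PSMB6 lies at -0.87 on the x axis in R1 and -0.90 in R2, while all 12 members that were higher in R1 lie between -0.22 and 0.38.

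Fold changes differed between ranges of transcript length, which is given as a description. Genes with transcripts of 700 to under 1100 bases had a median log2 fold change of 0.15 in R1 against control over all 964 such genes and 0.36 over the 18 members among them. For R2 against R1 the same medians were -0.20 and -0.44. In R1 against control the shift was not steady with length among the members. There, those of 1100 to under 2000 bases had a median of -0.08 and those of 2000 to under 4000 bases 0.14. Over all such genes the medians were 0.05 and -0.01. In R2 against R1 the member medians rose with length, to -0.004 and 0.05 in these 2 ranges, beside -0.09 and 0.03 over all such genes. The Spearman correlation of length with this fold change was 0.47 over the 44 members and 0.20 over all genes with a length. With a smooth trend on length removed from all genes, 10 members were higher and 5 lower in R1 against control, and 5 were higher and 12 lower in R2 against R1. Over the 11834 rows with a length, that fit gave 2664 higher and 2756 lower in R1 against control. In R2 against R1 it gave 2788 higher and 2890 lower. The part of length was not tested further.

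Of 41 other genes of the ubiquitin-proteasome system, 16 were higher and 10 were lower in R1 against control, 5 and 8 in R2 against control, and 6 and 17 in R2 against R1. Over all rows 22.4% were higher and 21.4% lower in R1 against control, 13.6% and 14.8% in R2 against control, and 22.8% and 24% in R2 against R1. The median log2 fold change of the 41 genes was 0.07, -0.02 and -0.07 in these comparisons, beside 0.01, 0.03 and -0.00 over all rows. POMP, which matures the core together with the PSMG chaperones, gave 129, 86.6, 164 and 145 in R1, 74.9, 67.9, 87.5 and 78.9 in R2 and 76.7, 72.8, 73.0 and 73.2 in control. It was higher in R1 than in control (log2 fold change 0.78 with SE 0.16, adjusted p = 0.0011) and lower in R2 than in R1 (log2 fold change -0.73), with every R1 library above every control library. SHFM1, which codes for the small lid subunit SEM1, was also higher in R1 (log2 fold change 0.60 with SE 0.12, adjusted p = 0.00123), and ADRM1, a ubiquitin receptor, did not pass (log2 fold change 0.02).

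The transcription factor NFE2L1 gave 249.4, 273, 239.8 and 243 in R1, 264, 300.4, 252 and 257 in R2 and 314, 319, 357 and 308 in control, with all R1 and R2 libraries below all control libraries. It was lower in R1 (log2 fold change -0.37 with SE 0.09, adjusted p = 0.00564) and in R2 (log2 fold change -0.27 with SE 0.09, adjusted p = 0.0413) than in control. NFE2L2, which codes for the related NRF2, averaged 95.3 ± 7.43 in R1, 88.9 ± 2.57 in R2 and 93.1 ± 8.93 in control (SD, n = 4 each) and did not pass. NRF1 is controlled mostly at the protein level, so transcript levels do not measure its activity. The call on NFE2L1 in R2 was lost without replicate 1, 3 or 4 of R2, without any 1 control library or without replicate 1 or 4 of R1, with an adjusted p of 0.0515 to 0.123 by limma, and by edgeR on recovered reads (adjusted p = 0.0508). DDI2, the protease that cuts NRF1, was higher in R1 (log2 fold change 0.52, adjusted p = 0.0244) and in R2 (0.76, adjusted p = 0.0043). The R1 call on DDI2 was lost without replicate 1, 2 or 4 of R1 or replicate 3 or 4 of control, with an adjusted p of 0.0513 to 0.0814 by limma. VCP, the segregase that extracts ubiquitinated proteins and NRF1 from the endoplasmic reticulum, was higher in R1 and did not pass in R2 (0.53 in R1 and 0.03 in R2) and was lower in R2 than in R1 (-0.50). MAFG, a small MAF partner of NRF1 and NRF2, was higher in R1 (0.68), and NFE2L3, a relative of NRF1, was higher in R2 (0.82).

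RPS27A, which codes for ubiquitin fused to a ribosomal protein, was higher in R1 than in control (log2 fold change 1.09), while UBB, which codes for polyubiquitin, was lower in R1 (-0.40) and R2 (-0.48). RAD23B, whose protein carries ubiquitinated substrates to the proteasome, was lower in R1 (-0.32). The call on RAD23B was lost without replicate 1 or 2 of R1 or replicate 2 or 4 of control, with an adjusted p of 0.0535 to 0.0587 by limma. UBE3C, a ubiquitin ligase bound to the proteasome, was higher in R1 (0.68), and TXNL1, a thioredoxin bound to the 19S particle, was lower (-0.66).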

How the data were processed

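RNA was measured in 12 libraries, 4 per group, and groups were taken from the sample titles. Per the labels' protocols, extraction used the Qiagen RNeasy kit and libraries were made with TruSeq RNA v2. STAR, edgeR and GRCh38 are named in the submitters' processing notes, and versions are not given in the sources used here. The deposited files hold 1 normalised signal per gene symbol, scaled by the authors for library size. All values (100%) of each library could be divided by 1 step into whole reads, to within 0.001 reads, so reads were recovered, and counting limits come from them. The design named limma for scaled signal, and edgeR only if the files held read counts, so limma was the main test.

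Values were fitted as log2(signal + 0.5) with limma 3.58.1 (mean-variance trend) in R 4.3.3, with all 12 libraries and 3 group means, two-sided, adjusted by Benjamini-Hochberg over 12931 rows. Alternatives were other pseudocounts, a filter on low signal, other scaling (TMM, DESeq2 size factors), no trend, only the 2 groups compared, a replicate block, edgeR 4.0.16 and DESeq2 1.42.0 on recovered reads, a lowess trend on transcript length removed, and each library left out. The fit was tested on simulated data. Library pairs differed beyond counting noise, so none was counted as a repeat, but this does not show that they are separate tumours. Control replicates 1 and 2 (16.2) and 3 and 4 (11.4) were closer in recovered reads, by chi-square per gene, than the other control pairs (44.6 to 77.9). The fits did not take such closeness into account.

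The members and gene lists were chosen with earlier results of these data known. Signals per library are given for catalytic subunits, PSMB10, PSMD4, PSMD14, PSME1, PSME2, PSMF1, PSMG1 to PSMG4 and, per comparison, up to 5 called members with the largest fold change in each direction. Positions and promoters come from RefSeq (GRCh38.p14), where 49 of the 50 members had a position and 38 of the 44 protein-coding members a promoter, and lengths from GENCODE 29 (median of basic coding transcripts; 11834 of 12931 rows matched).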

Additional observations from a re-analysis of the deposited data

Results flagged for a closer look

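Within groups of 4 libraries, the gap of the highest or lowest library to its nearest neighbour was compared with the whole range for each of the 44 protein-coding members, and chance alone gives such an outlier in about 1 of 20 groups. Of 132 groups, 2 held one. PSMA2, an alpha subunit whose coding exons are shared with a second gene, had 1.404 in R1 replicate 2, against 2.43 to 2.4995 in the other R1 libraries. PSMG2, a chaperone of the core, had 28.99 in control replicate 4, against 23.7 to 23.9 in the other control libraries.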

How the results depend on the processing

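No called member reversed its direction under the alternatives run. The number of members higher in R1 than in control was 12 with all libraries, 10 to 15 under the other settings, and 11 to 19 with 1 library left out (19 without R1 replicate 2). The number lower in R1 was 5, with 4 to 6 when 1 library was left out. Over all 12931 rows, leaving out 1 library gave 2524 to 3020 higher and 2400 to 2857 lower in R1, beside 2900 and 2767 with all libraries. In R2 against control 2 were higher, but 6 with only the 2 groups compared, 4 by DESeq2 on recovered reads and 0 to 4 with 1 library left out, and 7 were lower, with 5 to 9. The number of all rows higher in R2 than in control moved as well. It was 1756 with all libraries, 2231 with only the 2 groups compared, 1842 by DESeq2 and 1290 to 2076 with 1 library left out. In R2 against R1 2 were higher, but 5 with the length trend removed and 2 to 3 with 1 library left out, and 17 were lower, with 12 to 21. Of all 12931 rows, 3108 were lower in R2 than in R1 with all libraries and 2717 to 3129 with 1 library left out. Of the 41 other ubiquitin-proteasome genes, for which the same alternatives were added after seeing the data, 12 to 16 were higher and 8 to 10 lower in R1 with 1 library left out, 3 to 6 and 5 to 9 in R2, and 6 to 7 and 14 to 17 in R2 against R1; no other setting moved these counts by over 1.5 times. The cause of these shifts was not tested. With a replicate block 15 members were higher and 5 lower in R1, 2 and 7 in R2, and 2 and 18 in R2 against R1. Over all 12931 rows that block gave 2966 higher and 2832 lower in R1, 1810 and 1923 in R2, and 3024 and 3138 in R2 against R1. Same-numbered libraries did not deviate together: over 12 pairs the correlation of their deviations ran from -0.31 to 0.39, and 5 exceeded 0.1, so the numbers were not taken as pairs. Pairs of unlike number from different groups ran further. R1 replicate 2 had correlations of -0.52 with control replicate 1, 0.43 with control replicate 3 and 0.41 with control replicate 4. The fits did not take these correlations into account. PSMG3-AS1, PSMB8-AS1, PSMB10, PSMC1P10 and PSMA2 had the fewest reads of the members, from 10 to 146 per library.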
